A study of Homo sapiens with 38 samples.

Results

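The 52 genes described here build the mitotic spindle attachment, watch over it and end it. They were listed by name and all 52 were found among the 50652 genes listed for BE2C cells and the 50778 genes listed for the palbociclib experiment. The list holds 5 mitotic kinases, 6 spindle checkpoint genes, 5 genes of the anaphase-promoting complex (APC/C) pathway and 3 of the chromosomal passenger complex. It also holds 10 outer and 7 inner kinetochore genes, 5 condensin genes, 4 genes of spindle and cytokinesis, and SGO1, which shields centromeric cohesin. The remaining genes are 4 transcription factors or MuvB subunits and the chromosome proteins MKI67 and TOP2A.

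In mitosis the kinetochore, an assembly of proteins on the centromere, takes hold of spindle microtubules with its outer part and of centromeric chromatin with its inner part. Kinetochores without microtubules keep the spindle checkpoint active, and the checkpoint holds back CDC20, the activator of the APC/C, a ubiquitin ligase whose targets include securin (PTTG1). FZR1, also known as CDH1, is the activator used late in mitosis and in G1. Most of these genes are transcribed in G2 and mitosis, with MuvB, MYBL2 and FOXM1 at their promoters, and proliferating tumour cells transcribe them. Condensin folds the chromosomes.

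RNA from samples labelled as 5 human neuroblastoma cell lines was sequenced, although the label for RNA extraction speaks of xenograft tissue. BE2C cells were given GSK-J4, an inhibitor of the H3K27 demethylases KDM6A and KDM6B, at 2.5 µM for 0, 24 or 48 h, with 2 libraries per time. Other BE2C cells were transfected for 72 h with a control siRNA (siCtrl, 2 libraries) or with the siRNA N1, N2 or N33 against KDM6B (siKDM6B, 1 library each). CHLA15 and CHLA20 cells received palbociclib, an inhibitor of the G1 kinases CDK4 and CDK6, at 300 nM, while NB1643 and NB1691 received it at 3 µM, both for 72 h. Each of these 4 lines had 2 palbociclib and 2 control libraries. Every group is 1 cell line, and BE2C carries amplified MYCN. No library without GSK-J4 was taken at 24 or 48 h, so the drug and the time in culture cannot be told apart. The labels do not say that libraries of a group came from separate cultures, so p-values measure the spread between libraries, which may be technical.

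Libraries held 36186567 to 63433818 counts on genes with GSK-J4, 41227956 to 50776662 with siRNA and 45457371 to 93011010 with palbociclib. All 52 genes passed the filter on low counts in each experiment. The lowest count of any of them was 29, for SPC25 in an NB1691 library with palbociclib. A count of 3, taken as the floor, was at most 0.0829 CPM (counts scaled to 1000000 per library), and this covers counting error only. All 10 sympathoadrenal markers were at 1 CPM or more in every library of all groups except the NB1691 controls, where 9 of 10 were. Their summed level was 623 to 684 CPM in the NB1691 controls and 4330 to 4900 CPM in the controls of the other 3 lines. The 5 fibroblast markers summed to 16341 to 16640 CPM in the NB1691 controls and to at most 313 CPM in the other controls. The 5 epithelial markers summed to 349 and 350.1 CPM in the NB1691 controls and to at most 4.19 CPM in the other controls. In the NB1691 controls 2 of the 5 epithelial markers were at 1 CPM or more in every library. Over all libraries, KRT18 reached 567 CPM and KRT8 58.7, but KRT19 at most 3.48, EPCAM 3.10 and CDH1 0.199. CDH1 is here the symbol of the epithelial marker gene and does not mean FZR1. Among fibroblast markers COL1A1 reached 19850 CPM and LUM 2130, but DCN at most 117, COL3A1 48.8 and COL1A2 5.15. MYCN was at 86.1 and 86.5 CPM in the NB1691 controls and at 3093 and 3257 CPM in the NB1643 controls. It was at 2.29 and 2.28 CPM in the CHLA15 controls and at 2.89 and 3.39 CPM in the CHLA20 controls. In MYCN, NB1691 therefore lay between NB1643 and the CHLA lines. NB1691 stood apart from the other lines in these marker sums, and each line is given on its own. The 5 lymphoid markers summed to at most 0.727 CPM in any library.

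Without drug, the per-length level (CPM per kilobase of exon, RPKM) placed TOP2A, the topoisomerase that untangles sister chromatids, and UBE2C, the conjugating enzyme of the APC/C, at the top of the list. TOP2A was the highest of the 52 in BE2C, CHLA15, CHLA20 and NB1691 at 220 (0 h), 208, 217 and 78.0 RPKM. UBE2C led in NB1643 at 99.3 RPKM. At the bottom were MAD1L1, LIN54, CENPI, SGO1, CENPN and LIN9, which took the last places in different lines. MAD1L1, which brings MAD2 to the kinetochore, stood at 4.43 RPKM in BE2C at 0 h and 3.61 RPKM in NB1691. The checkpoint genes therefore spanned a wide range of levels: BUB1B was at 43.7 RPKM in BE2C at 0 h, MAD2L1 at 35.6, BUB3 at 27.6, TTK at 25.5 and BUB1 at 14.1. In the untreated CHLA15, CHLA20, NB1643 and NB1691 libraries, all 52 genes differed among lines (edgeR adjusted p under 0.05), as did 91.2% of the 22133 genes tested. CHLA20 had the highest mean CPM of 25 members and CHLA15 of 16, while NB1691 had the lowest of 43. NCAPH, a condensin I subunit, varied most, and was 4.97-fold higher in CHLA20 than in NB1691. BUB3 varied least, with a 1.25-fold span.

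The promoters of 6 members are printed to show the sequence behind genes that later moved far, moved up or hardly moved. They come from RefSeq (GRCh38.p14) and run from 250 bases before to 50 after the gene's start, 5′ to 3′ on the gene's strand. Capitals mark letters searched on either strand: the cell cycle genes homology region (CHR, TTTGAA or TTCGAA), the CCAAT box (CCAAT) and an E2F site (TTTGGCGC, TTTCGCGC or TTTCCCGC). None of these patterns overlapped another in the 6 promoters. The PLK1 window is chr16:23678639-23678938 (+), that of CDC20 chr1:43358731-43359030 (+), that of BUB1 chr2:110678014-110678313 (-), that of CENPU chr4:184734047-184734346 (-), that of FZR1 chr19:3506061-3506360 (+) and that of MAD1L1 chr7:2232896-2233195 (-).
PLK1: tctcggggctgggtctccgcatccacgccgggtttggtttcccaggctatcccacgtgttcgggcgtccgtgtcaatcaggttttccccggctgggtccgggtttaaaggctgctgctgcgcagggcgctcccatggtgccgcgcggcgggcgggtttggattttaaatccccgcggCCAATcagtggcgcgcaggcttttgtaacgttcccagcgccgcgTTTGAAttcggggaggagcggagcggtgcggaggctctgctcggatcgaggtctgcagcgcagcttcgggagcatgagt
CDC20: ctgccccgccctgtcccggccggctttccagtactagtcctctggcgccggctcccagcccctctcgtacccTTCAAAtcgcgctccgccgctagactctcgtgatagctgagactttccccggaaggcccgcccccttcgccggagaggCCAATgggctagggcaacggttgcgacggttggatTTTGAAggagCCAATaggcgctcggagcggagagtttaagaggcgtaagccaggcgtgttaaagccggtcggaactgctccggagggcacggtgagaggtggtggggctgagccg
BUB1: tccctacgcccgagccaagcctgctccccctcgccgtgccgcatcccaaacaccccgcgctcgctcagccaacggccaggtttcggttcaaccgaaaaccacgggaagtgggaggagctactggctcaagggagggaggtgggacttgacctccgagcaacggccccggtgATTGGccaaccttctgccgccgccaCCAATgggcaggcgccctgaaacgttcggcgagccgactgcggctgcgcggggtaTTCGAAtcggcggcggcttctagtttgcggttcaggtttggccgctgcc
CENPU: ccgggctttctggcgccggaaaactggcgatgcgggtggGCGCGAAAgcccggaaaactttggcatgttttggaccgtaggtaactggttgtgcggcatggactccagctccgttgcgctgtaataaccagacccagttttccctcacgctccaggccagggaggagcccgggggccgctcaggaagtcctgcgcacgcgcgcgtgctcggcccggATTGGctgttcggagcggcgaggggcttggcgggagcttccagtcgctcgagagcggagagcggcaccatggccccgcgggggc
FZR1: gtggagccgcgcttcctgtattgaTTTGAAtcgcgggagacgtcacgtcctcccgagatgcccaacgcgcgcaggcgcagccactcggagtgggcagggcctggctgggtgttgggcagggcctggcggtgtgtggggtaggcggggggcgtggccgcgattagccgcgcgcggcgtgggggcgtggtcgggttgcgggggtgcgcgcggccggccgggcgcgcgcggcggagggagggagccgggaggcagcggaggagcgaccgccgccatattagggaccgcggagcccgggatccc
MAD1L1: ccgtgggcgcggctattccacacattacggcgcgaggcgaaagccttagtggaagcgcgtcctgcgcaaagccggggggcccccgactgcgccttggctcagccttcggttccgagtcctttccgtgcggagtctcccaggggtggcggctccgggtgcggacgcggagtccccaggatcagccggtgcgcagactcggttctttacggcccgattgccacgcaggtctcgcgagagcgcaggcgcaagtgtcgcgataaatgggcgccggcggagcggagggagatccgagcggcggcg
Relative to the start, PLK1 had a CHR at position -29 and a CCAAT box at -73. CDC20 had CHR matches at -178 and -65 and CCAAT boxes at -100 and -55. BUB1 had a CHR at 2 and CCAAT boxes at -79 and -54. FZR1 had a CHR far upstream at -226, CENPU had a CCAAT box at -34 and an E2F site at -211, and the MAD1L1 window held none of these letters.

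Of the 52 members, 43 had a promoter in the table. A CHR was present in 30 of the 43 (69.8%), against 16.6% of all 27305 promoters and 11.3% of the 10763 promoters of genes tested in BE2C. In the 50 bases on either side of the start, a window chosen after the positions of the matches were seen, 24 of 43 members (55.8%) and 5.05% of all promoters held it. CCAAT was present in 26 of 43 members (60.5%) and in 35.7% of all promoters. The E2F letters were found in 1 member, CENPU (2.33%), and in 2.79% of all promoters. Only the exact letters given above were searched, so other forms of an E2F site were not counted. A match is a description of the letters, and nothing was measured at these sites.

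**Figure D1:**
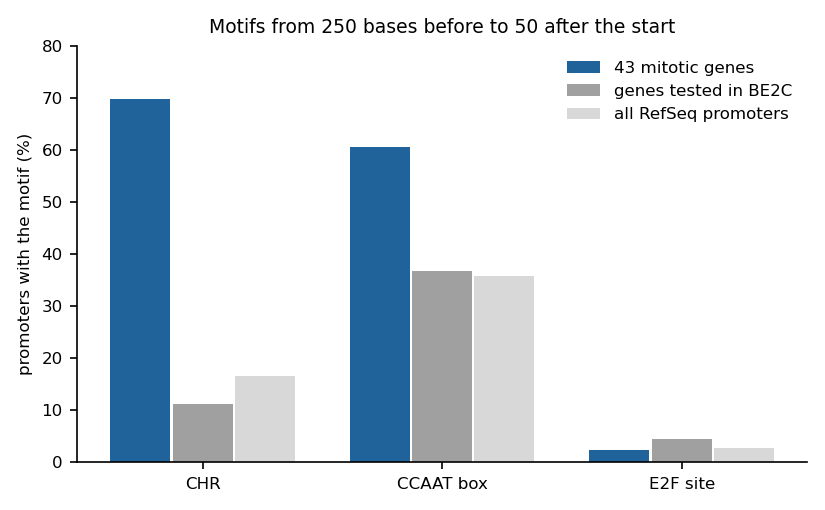
Bars give the percentage of promoters (y axis) that hold the CHR, CCAAT or E2F letters on either strand, for 43 mitotic genes, the genes tested in BE2C and all RefSeq promoters. The CHR bar is 69.8% for the mitotic genes and 16.6% for all promoters.

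With GSK-J4, most of the 52 genes fell and kept falling. At 24 h 42 members were lower than at 0 h and 5 were higher (edgeR adjusted p under 0.05), where 28% of the 17734 genes tested were lower and 27.3% higher. The members had a median log2 fold change of -0.36, and all genes 0.01. At 48 h 47 were lower and 2 higher than at 0 h (34.4% and 37.1% of all genes), with a median of -0.80 against 0.05. Between 24 and 48 h 49 fell and 1 rose (28% and 25.9% of all genes), with a median of -0.49 against 0.01. These comparisons share libraries, so they are set side by side only. The summed level of the 52 genes was 9407 and 9531 CPM at 0 h, 7041 and 6983 at 24 h, and 5218 and 5171 at 48 h. Every 24 h library was below every 0 h library, and every 48 h library below every 24 h library, for 41 of 52 members (78.8%) and for 22.5% of all genes tested. The sympathoadrenal markers also moved, from 4731 to 4807 CPM at 0 h to 3727 to 3753 CPM at 48 h, and their part in these values was not tested. In these bulk libraries, fewer cells in mitosis and less RNA per cell cannot be told apart.

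**Figure D2:**
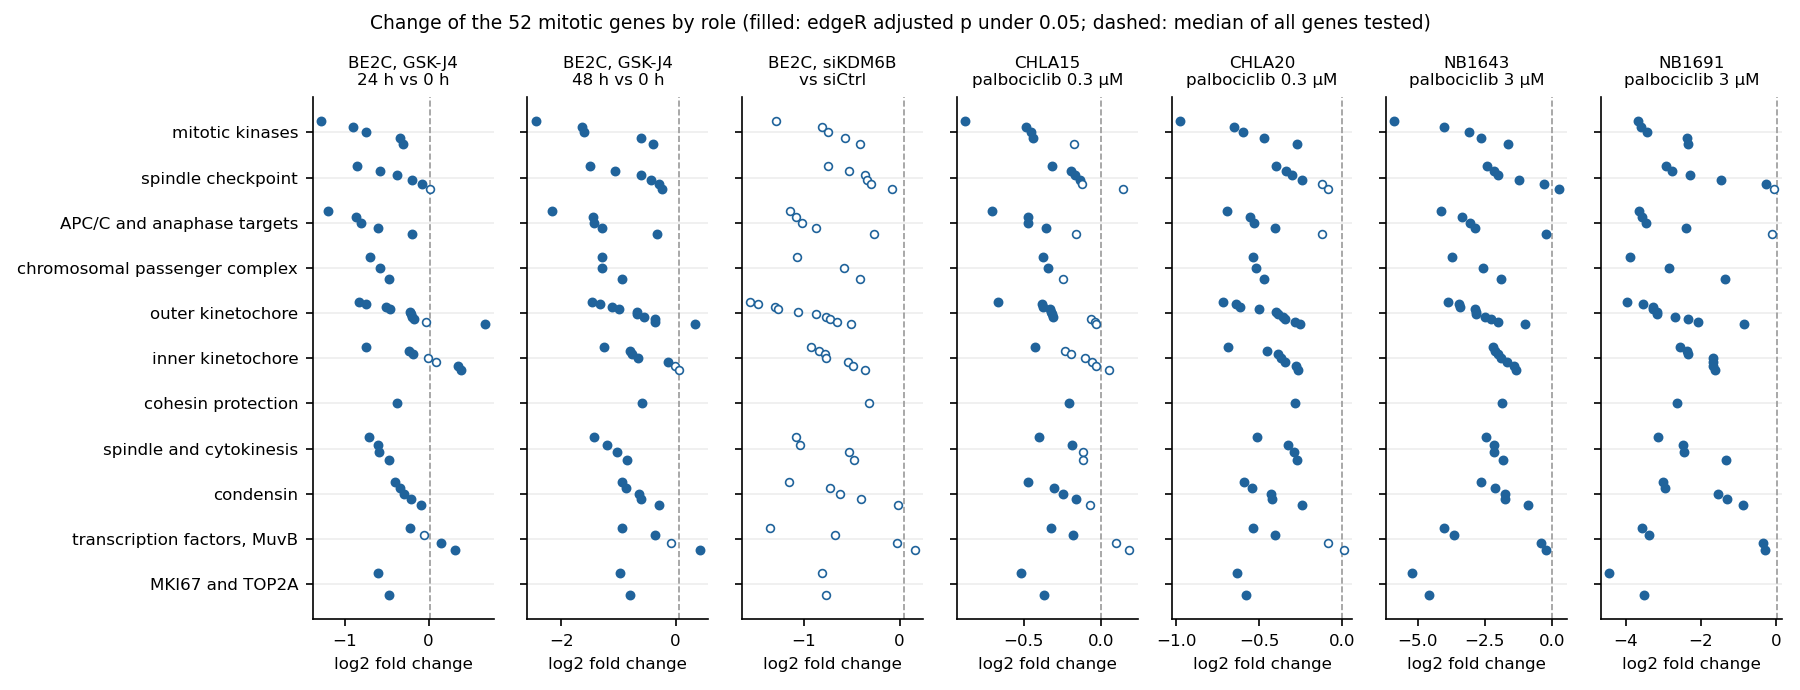
Each point is a gene, placed by its log2 fold change (x axis, a separate scale in each panel) and its role (y axis), with filled points past an edgeR adjusted p of 0.05 and a dashed line at the median of all genes tested. Points lie left of the line for most roles in all 7 comparisons, and no point is filled for siKDM6B.

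All 5 mitotic kinases fell at both times. PLK1 (chr16:23688977-23701688 of GRCh37), the kinase of mitotic entry and spindle assembly, was at 116 and 119 CPM at 0 h, 47.4 and 48.8 at 24 h, and 22.8 and 20.2 at 48 h. Its libraries separated fully by time, with a log2 fold change of -1.29 ± 0.041 (SE) at 24 h (edgeR adjusted p = 1.3e-29). At 48 h it was -2.44 ± 0.0446 (SE, edgeR adjusted p = 6.7e-40). PLK1 had the lowest value of the 52 at both times. AURKA, the kinase of the spindle poles, was at 134 and 135 CPM at 0 h, 68.8 and 74.1 at 24 h, and 44.2 and 44.8 at 48 h, a change of -1.59 at 48 h (edgeR adjusted p = 2.9e-35). PLK4, which starts centriole duplication, was at 77.2 and 72.4 CPM at 0 h, 61.3 and 59.2 at 24 h, and 49.2 and 48.8 at 48 h, a change of -0.61 (edgeR adjusted p = 3.7e-18). In both genes every library was below those of the earlier time. NEK2, a kinase of centrosome separation, fell by 24 h (-0.35) and was not called between 24 and 48 h (-0.04, edgeR adjusted p = 0.402).

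Among the 6 checkpoint genes, 5 fell at 24 h and all 6 at 48 h, with medians of -0.29 and -0.51 that were smaller than those of the kinases (-0.75 and -1.59). BUB1, the checkpoint kinase at the kinetochore, was at 88.8 and 88.7 CPM at 0 h, 46.8 and 51.4 at 24 h, and 31.4 and 31.9 at 48 h. It moved furthest of the 6 (-1.49 at 48 h, edgeR adjusted p = 8.8e-32). BUB3, its binding partner, was at 224 and 227 CPM at 0 h, 214 and 213 at 24 h, and 184 and 183 at 48 h (-0.30 at 48 h, edgeR adjusted p = 1.8e-12). MAD2L1, the protein that binds and restrains CDC20, was at 202 and 191 CPM at 0 h, 174 and 169 at 24 h, and 149 and 145 at 48 h. The libraries of all 3 genes were ordered by time. The 24 h call of BUB3 (-0.08) was lost without 0 h replicate 2 (-0.07) or either 24 h replicate (-0.08 and -0.07). The other checkpoint kinases BUB1B and TTK, of which BUB1B is a pseudokinase, changed by -1.06 and -0.60 at 48 h. MAD1L1 was at 30.9 and 30.7 CPM at 0 h, 30.2 and 32.03 at 24 h, and 26.1 and 25.97 at 48 h. Its 0 h and 24 h libraries overlapped (0.02, edgeR adjusted p = 0.832), and its 48 h libraries were lower (-0.24, edgeR adjusted p = 6.1e-05). Other annotated genes share 43.2% of the exon bases of MAD1L1 (chr7:1855429-2272878 of GRCh37), which makes its count less certain.

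The activators of the APC/C moved unequally. CDC20 was at 88.2 and 90.9 CPM at 0 h, 39.7 and 38.01 at 24 h, and 20.3 and 19.9 at 48 h, with changes of -1.21 ± 0.0421 (SE) at 24 h and -2.15 ± 0.045 (SE) at 48 h (edgeR adjusted p = 1.6e-37), the lowest of the 52 after PLK1. FZR1 was at 34.3 and 33.2 CPM at 0 h, 28.5 and 30.3 at 24 h, and 27.1 and 26.9 at 48 h, a change of -0.32 at 48 h (edgeR adjusted p = 4.5e-07). Per length, the level of CDC20 was 8.28 and 8.83 times that of FZR1 at 0 h, 4.48 and 4.03 times at 24 h, and 2.40 and 2.39 times at 48 h. CDC20 thus lay closer to FZR1 at each later time. UBE2C was at 161 and 166 CPM at 0 h, 92.97 and 94.3 at 24 h, and 61.2 and 59.8 at 48 h (-1.43 at 48 h, edgeR adjusted p = 3.5e-35). PTTG1, the securin that the APC/C destroys, was at 158 and 167 CPM at 0 h, 91.3 and 86.7 at 24 h, and 57.2 and 63.1 at 48 h (-1.44 at 48 h, edgeR adjusted p = 3.5e-33), and because PTTG1 has near-identical copies its counts are uncertain. Separase, ESPL1, the protease that securin holds back, changed by -1.28 at 48 h.

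In the chromosomal passenger complex, which corrects wrong attachments, all 3 genes fell at each time. BIRC5 (survivin) was at 173.3 and 169 CPM at 0 h, 123 and 123 at 24 h, and 92.2 and 86.7 at 48 h. INCENP, the scaffold of the complex, was at 78.6 and 77.1 CPM at 0 h, 49.9 and 53.9 at 24 h, and 32.8 and 31.2 at 48 h, with a change of -1.28 at 48 h against -0.93 for BIRC5. The libraries of both genes were ordered by time with no overlap.

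The 17 kinetochore genes were mixed. At 24 h 11 were lower, 3 were higher and 3 did not pass the test, and at 48 h 14 were lower, 1 higher and 2 not called. The outer genes had medians of -0.22 and -0.68 and the inner genes of -0.01 and -0.65. CENPF was at 1033 and 1108 CPM at 0 h, 641 and 627 at 24 h, and 429.9 and 423 at 48 h. NDC80, which grips the microtubule, was at 38.9 and 41.2 CPM at 0 h, 35.2 and 35.9 at 24 h, and 25.5 and 24.4 at 48 h, and its change of -0.17 at 24 h became -0.68 at 48 h (edgeR adjusted p = 1.8e-16). SKA2, a subunit of the SKA complex that tracks microtubule ends, was at 163 and 163 CPM at 0 h, 146 and 138 at 24 h, and 131 and 123 at 48 h (-0.36 at 48 h). All 3 of these genes were lower at each later time, and the 24 h call of NDC80 was lost without 0 h replicate 2 (-0.13). CENPE, a kinesin motor, had the largest fall of the 17 (-1.45 at 48 h, edgeR adjusted p = 5.3e-36). The members not called at 24 h were CENPK, CENPN and SKA3 of the kinetochore, MAD1L1 and LIN9, and at 48 h they were CENPH, CENPU and LIN9.

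Of the 7 inner kinetochore genes, CENPU and CENPH were higher at 24 h, 3 were lower and 2 were not called. CENPU was at 89.6 and 94.7 CPM at 0 h, 123 and 117 at 24 h, and 91.9 and 92.02 at 48 h. Its 24 h libraries were above all others (0.39, edgeR adjusted p = 6.2e-13), and its 48 h libraries lay within the span of 0 h. CENPH was higher at 24 h (0.35, edgeR adjusted p = 5e-11) and close to 0 h at 48 h (0.06, edgeR adjusted p = 0.139). CENPN was at 75.3 and 68.2 CPM at 0 h, 73.4 and 69.01 at 24 h, and 45.7 and 45.8 at 48 h, so its 0 h and 24 h libraries overlapped and its fall came between 24 and 48 h (-0.64, edgeR adjusted p = 1.1e-17). SKA1, of the outer kinetochore, was at 16.5 and 16.4 CPM at 0 h, 26.7 and 26.1 at 24 h, and 21.2 and 20.4 at 48 h. It was the highest of the 52 at 24 h (0.68, edgeR adjusted p = 2.3e-13) and stayed above 0 h at 48 h (0.34, edgeR adjusted p = 3.9e-06). The annotation gives CENPN 23.1% and CENPU 14.9% of exon bases shared with other genes.

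All 5 condensin genes fell at both times. NCAPH, the kleisin that closes the condensin I ring, was at 75.5 and 75.2 CPM at 0 h, 61.6 and 60.9 at 24 h, and 39.6 and 38.9 at 48 h (-0.94 at 48 h, edgeR adjusted p = 3.2e-25). SMC2, an ATPase arm of both condensins, was at 251 and 255 CPM at 0 h, 240.1 and 236 at 24 h, and 209 and 205 at 48 h, and its change of -0.29 was the smallest of the 5 (edgeR adjusted p = 3.5e-12). SMC4, the other arm, was at 521 and 509.8 CPM at 0 h, 410.0 and 402 at 24 h, and 341 and 336 at 48 h (-0.60, edgeR adjusted p = 4.3e-24), with 22% of its exon bases shared with IFT80 and TRIM59. Each of the 3 was lower at each later time. For SMC2 the 24 h call (-0.09) was lost without 0 h replicate 2 (-0.08) or 24 h replicate 2 (-0.07), and when libraries were scaled by their totals or upper quartiles. The 4 genes of spindle and cytokinesis, TPX2, PRC1, ECT2 and ANLN, also fell, by 0.84 (ANLN) to 1.42 (PRC1) on the log2 scale at 48 h, and SGO1 changed by -0.58. PRC1 shares 61.9% of its exon bases with other annotated genes.

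The transcription genes parted. FOXM1 was at 134 and 144 CPM at 0 h, 118 and 122 at 24 h, and 73.1 and 71.8 at 48 h (-0.94 at 48 h, edgeR adjusted p = 3.5e-27). MYBL2 was at 231 and 245 CPM at 0 h, 263 and 264 at 24 h, and 185 and 186 at 48 h, higher at 24 h (0.15, edgeR adjusted p = 3.1e-05) and lower at 48 h (-0.36, edgeR adjusted p = 1.6e-14). LIN54, the MuvB subunit that reads the CHR, was at 52.3 and 52.3 CPM at 0 h, 64.9 and 65.8 at 24 h, and 71.1 and 69.5 at 48 h. Its call between 24 and 48 h (0.11) was lost in DESeq2 and without either 24 h replicate (0.09 and 0.11) or 48 h replicate 1 (0.08). LIN54 was higher at each later time and was the highest of the 52 at 48 h (0.43, edgeR adjusted p = 2e-13). LIN9, another MuvB subunit, passed the test in none of the 3 comparisons (-0.09 at 48 h, edgeR adjusted p = 0.113). TOP2A was at 1393 and 1409 CPM at 0 h, 1021 and 998 at 24 h, and 712 and 715 at 48 h, and MKI67, which coats mitotic chromosomes, was at 322 and 353 CPM at 0 h, 222 and 221 at 24 h, and 201 and 189 at 48 h. Both fell at each time, with changes at 48 h of -0.97 and -0.79.

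**Figure D3:**
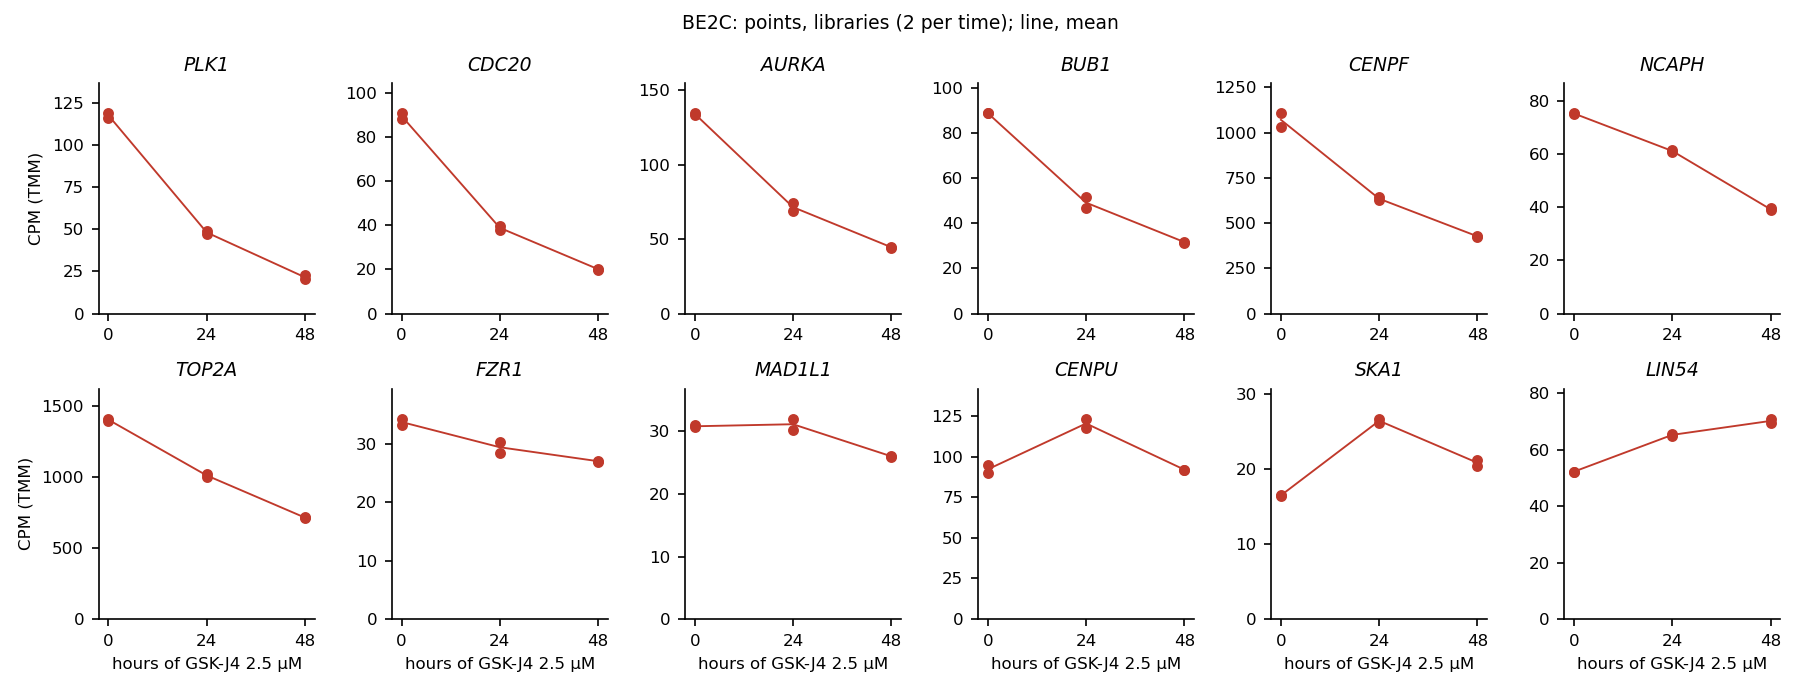
Points give the CPM (y axis, from 0) of 12 genes in each BE2C library at 0, 24 and 48 h of GSK-J4 (x axis), and lines join the means of 2 libraries. PLK1 fell from 116 and 119 CPM to 22.8 and 20.2 CPM, while LIN54 rose from 52.3 to 71.1 and 69.5 CPM.

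With palbociclib most of these genes were lower in all 4 lines. In CHLA15 33 members were lower and 0 higher, where 15.6% of the 22133 genes tested were lower and 14.2% higher, and the members' median log2 fold change was -0.25. In CHLA20 47 were lower and 0 higher (15.9% and 13.7% of all genes), with a median of -0.40. In NB1643 51 were lower and 1 higher (19.7% and 20.3%), with a median of -2.18. In NB1691 50 were lower and 0 higher (15.5% and 17.4%), with a median of -2.51. The median of all genes was 0.02 on the log2 scale in NB1691, the farthest from 0 of the 4 lines. The summed level of the 52 genes was 8133 and 8249 CPM in CHLA15 controls and 6472 and 6712 with palbociclib, and 8514 and 8398 against 6186 and 6105 CPM in CHLA20. It was 5847 and 5921 CPM in NB1643 controls and 1303 and 1340 with palbociclib, and 3790 and 3868 against 1001 and 952 CPM in NB1691. The summed sympathoadrenal markers were at 4330 to 4503 CPM in NB1643 controls and 6174 to 6285 with palbociclib, at 623 to 684 against 896 to 918 CPM in NB1691, at 4672 to 4900 against 5044 to 5393 CPM in CHLA15 and at 4394 to 4446 against 5239 to 5332 CPM in CHLA20. With palbociclib, the NB1691 libraries had summed epithelial markers of 611 to 627 CPM and summed fibroblast markers of 21154 to 22029 CPM, above their controls. The part of these shifts in the members' changes was not tested. The NB lines received the higher dose, so line and dose cannot be told apart across that boundary.

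All 5 kinases were called in CHLA20, NB1643 and NB1691, and 4 in CHLA15. AURKB, the kinase of the passenger complex, was at 154 and 158 CPM in CHLA15 controls and 85.8 and 83.5 with palbociclib, and 159.8 and 179 against 85.6 and 86.1 in CHLA20. AURKB stood at 70.6 and 70.1 CPM in NB1643 controls and 1.33 and 1.02 with palbociclib, and 52.8 and 52.8 against 4.86 and 3.88 in NB1691. Its fall was the largest of the 52 in CHLA15 (-0.88), CHLA20 (-0.98) and NB1643 (-5.87, edgeR adjusted p = 6.8e-18). PLK1 was at 118 and 116 CPM in CHLA15 controls and 82.4 and 84.1 with palbociclib, and 107 and 121 against 82.2 and 83.2 in CHLA20. PLK1 stood at 83.2 and 80.7 CPM in NB1643 controls and 5.05 and 5.12 with palbociclib, and 41.6 and 41.7 against 3.93 and 3.73 in NB1691. Its palbociclib libraries were below the controls in every line. AURKA was at 57.2 and 55.5 CPM in CHLA15 controls and 41.1 and 42.2 with palbociclib, and 58.3 and 66.3 against 39.98 and 39.4 in CHLA20. AURKA stood at 35.3 and 35.6 CPM in NB1643 controls and 5.39 and 6.03 with palbociclib, and 65.5 and 69.2 against 13.3 and 12.5 in NB1691. It too showed no overlap in any line, and its changes ran from -0.44 in CHLA15 to -2.64 in NB1643. PLK4 was at 52.95 and 55.1 CPM in CHLA15 controls and 47.6 and 48.1 with palbociclib, and 51.8 and 54.5 against 46.2 and 42.05 in CHLA20. PLK4 stood at 56.1 and 58.9 CPM in NB1643 controls and 18.98 and 18.1 with palbociclib, and 22.8 and 23.2 against 5.01 and 3.9 in NB1691. It moved least of the kinases in each line, by -0.17 in CHLA15 (edgeR adjusted p = 0.0705) and -2.36 in NB1691 (edgeR adjusted p = 2.6e-13), and its CHLA20 call (-0.27) was lost without palbociclib replicate 2 (-0.22).

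The checkpoint genes split in the same experiment. BUB1 was at 118 and 117 CPM in CHLA15 controls and 94.3 and 93.5 with palbociclib, and 126 and 129 against 97.1 and 96.6 in CHLA20. BUB1 stood at 75.04 and 75.6 CPM in NB1643 controls and 13.8 and 14.2 with palbociclib, and 42.4 and 45.9 against 6.23 and 5.4 in NB1691. It fell in all 4 lines, with changes of -2.43 in NB1643 and -2.92 in NB1691. BUB3 was at 202 and 202 CPM in CHLA15 controls and 181 and 179 with palbociclib, and 199 and 214 against 168 and 167 in CHLA20. BUB3 stood at 192 and 214 CPM in NB1643 controls and 160.2 and 168 with palbociclib, and 166 and 164 against 135 and 139 in NB1691. Its changes were called in every line but small, from -0.16 in CHLA15 to -0.31 in NB1643, and the CHLA15 call was lost without any 1 of its 4 libraries (-0.17 to -0.16). MAD2L1 was at 169 and 187 CPM in CHLA15 controls and 189 and 205 with palbociclib, and 181 and 209 against 180.4 and 178 in CHLA20. MAD2L1 stood at 169 and 229 CPM in NB1643 controls and 81.9 and 89.4 with palbociclib, and 60.4 and 58.7 against 22.7 and 20.2 in NB1691. It fell in the NB lines (-1.22 and -1.47), and its libraries were not called apart in CHLA15 (0.14, edgeR adjusted p = 0.331) or CHLA20 (-0.12, edgeR adjusted p = 0.425). MAD1L1 was at 41.2 and 44.5 CPM in CHLA15 controls and 39.7 and 38.9 with palbociclib, and 39.7 and 40.8 against 37.2 and 38.8 in CHLA20. MAD1L1 stood at 28.2 and 24.3 CPM in NB1643 controls and 32.7 and 30.2 with palbociclib, and 25.1 and 25.2 against 24.6 and 23.1 in NB1691. It was called lower in no line and was the only member called higher, in NB1643 (0.26, edgeR adjusted p = 0.00674), and that call was lost when NB1643 was fitted alone and without palbociclib replicate 1 (0.20) or control replicate 2 (0.14).

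The APC/C activators parted again. CDC20 (chr1:43824652-43828874 of GRCh37) was at 109 and 108 CPM in CHLA15 controls and 64 and 68.6 with palbociclib, and 98.2 and 112 against 64.2 and 66.03 in CHLA20. CDC20 stood at 89.4 and 94.1 CPM in NB1643 controls and 13.2 and 12.2 with palbociclib, and 71.6 and 73.1 against 6.35 and 5.06 in NB1691. Its changes were -0.71 in CHLA15, -0.69 in CHLA20, -2.85 in NB1643 (edgeR adjusted p = 2.6e-15) and -3.65 in NB1691 (edgeR adjusted p = 3.9e-16). FZR1 was at 104.4 and 105 CPM in CHLA15 controls and 96.5 and 90.9 with palbociclib, and 87.2 and 92.7 against 82.5 and 83.2 in CHLA20. FZR1 stood at 46.3 and 40.2 CPM in NB1643 controls and 37.4 and 36.2 with palbociclib, and 75.5 and 75.5 against 71.7 and 67.8 in NB1691. It was called in NB1643 only (-0.23, edgeR adjusted p = 0.00692), a call lost when that line was fitted alone and without control replicate 1 (-0.12) or palbociclib replicate 2 (-0.21). The change of FZR1 in NB1691 was -0.11 (95% interval -0.24 to 0.02). Per length, CDC20 was 3.35 and 3.29 times FZR1 in CHLA15 controls and 2.13 and 2.43 times with palbociclib, and 3.63 and 3.90 against 2.50 and 2.56 times in CHLA20. The ratio was 6.21 and 7.54 in NB1643 controls and 1.13 and 1.08 with palbociclib, and 3.06 and 3.12 against 0.285 and 0.240 in NB1691. FZR1 RNA was thus the more abundant of the activators in NB1691 with palbociclib. UBE2C was at 152 and 152 CPM in CHLA15 controls and 116 and 121 with palbociclib, and 145 and 158 against 111 and 117 in CHLA20. UBE2C stood at 121 and 134 CPM in NB1643 controls and 7.44 and 6.91 with palbociclib, and 61.7 and 61.7 against 6.09 and 5.04 in NB1691. Its fall in NB1643 was the largest of the APC/C group (-4.15, edgeR adjusted p = 2.4e-17). PTTG1 was at 89.98 and 88.9 CPM in CHLA15 controls and 66.2 and 62.5 with palbociclib, and 88.2 and 101 against 65.5 and 63.1 in CHLA20. PTTG1 stood at 69.1 and 77.5 CPM in NB1643 controls and 7.43 and 7.01 with palbociclib, and 46.03 and 46.2 against 8.87 and 8.71 in NB1691. Both genes fell in all 4 lines, as did ESPL1.

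BIRC5 was at 267 and 283 CPM in CHLA15 controls and 232 and 232 with palbociclib, and 281 and 343 against 215 and 215 in CHLA20. BIRC5 stood at 254 and 274 CPM in NB1643 controls and 18.9 and 20.8 with palbociclib, and 94.5 and 98.4 against 7.68 and 5.4 in NB1691. It was called in 3 lines and missed the threshold in CHLA15 (-0.24, edgeR adjusted p = 0.0535). INCENP was at 95.7 and 97.7 CPM in CHLA15 controls and 75.2 and 77.3 with palbociclib, and 93.9 and 96.8 against 66.4 and 66.5 in CHLA20. INCENP stood at 69.9 and 58.02 CPM in NB1643 controls and 17.5 and 16.5 with palbociclib, and 43.4 and 43.6 against 16.9 and 16.8 in NB1691. Its changes in the NB lines were -1.91 and -1.37, beside -3.74 and -3.87 for BIRC5, a contrast between genes that was not tested.

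All 17 kinetochore genes were lower in CHLA20, NB1643 and NB1691, and 8 of 17 in CHLA15. Outer and inner genes had medians of -2.84 and -1.91 in NB1643, -3.17 and -1.69 in NB1691, -0.39 and -0.37 in CHLA20, and -0.32 and -0.10 in CHLA15. NDC80 was at 57.7 and 54.9 CPM in CHLA15 controls and 44.9 and 45.8 with palbociclib, and 60.9 and 61.3 against 43.8 and 42.7 in CHLA20. NDC80 stood at 24.8 and 28.4 CPM in NB1643 controls and 3.67 and 3.79 with palbociclib, and 30.6 and 31.2 against 2.74 and 2.55 in NB1691. It fell in all 4 lines. SPC25, its partner in the NDC80 complex, stood at 23.2 and 25.4 CPM in NB1643 controls and 1.63 and 1.72 with palbociclib, and 9.55 and 10.04 against 0.663 and 0.582 in NB1691. It had the lowest value of the 52 in NB1691 after MKI67 (-3.96, edgeR adjusted p = 2.1e-14) and in CHLA20 after AURKB (-0.72). CENPF was at 565 and 569 CPM in CHLA15 controls and 415 and 485 with palbociclib, and 632 and 479 against 444 and 425 in CHLA20. CENPF stood at 509.8 and 442 CPM in NB1643 controls and 62.5 and 67.6 with palbociclib, and 148 and 150.4 against 23.7 and 22.9 in NB1691. CENPF was called lower in every line. The CHLA20 call (-0.36) was lost without control replicate 1 (-0.16) or palbociclib replicate 2 (-0.34), and the CHLA15 call (-0.33) without either control (-0.34 and -0.33) or palbociclib replicate 1 (-0.22). SKA2 was at 236 and 249 CPM in CHLA15 controls and 235 and 228 with palbociclib, and 251 and 263 against 213 and 217 in CHLA20. SKA2 stood at 249 and 288 CPM in NB1643 controls and 131 and 138 with palbociclib, and 156 and 162 against 88.9 and 87.1 in NB1691. It moved least of the outer genes in CHLA20, NB1643 and NB1691.

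The inner kinetochore genes CENPU and CENPN, which were not called lower at 24 h of GSK-J4, were lower with palbociclib in 3 lines. CENPU was at 125 and 131 CPM in CHLA15 controls and 111 and 113 with palbociclib, and 146 and 156 against 108 and 113 in CHLA20. CENPU stood at 59.7 and 69.95 CPM in NB1643 controls and 16.6 and 15.5 with palbociclib, and 33.8 and 33.5 against 7.58 and 5.66 in NB1691. It missed the threshold in CHLA15 (-0.19, edgeR adjusted p = 0.0796). CENPN was at 27.3 and 26.9 CPM in CHLA15 controls and 24.9 and 27.2 with palbociclib, and 25.8 and 32.5 against 23.3 and 22.5 in CHLA20. CENPN stood at 20.1 and 21.9 CPM in NB1643 controls and 4.73 and 4.98 with palbociclib, and 24.5 and 25.9 against 7.99 and 7.59 in NB1691. In CHLA15 the libraries of CENPN overlapped (-0.06, edgeR adjusted p = 0.684), and in CHLA20 its call (-0.35) was lost without control replicate 2 (-0.19). Of the 17, CENPH alone of the inner genes was lower in CHLA15 (-0.43, edgeR adjusted p = 5.8e-05).

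Condensin genes fell in all lines except SMC2 in CHLA15 (-0.07, edgeR adjusted p = 0.361). NCAPH was at 119 and 124 CPM in CHLA15 controls and 109 and 109 with palbociclib, and 138 and 146 against 108 and 103.8 in CHLA20. NCAPH stood at 111 and 111 CPM in NB1643 controls and 33.03 and 33.2 with palbociclib, and 27.9 and 29.3 against 3.95 and 3.35 in NB1691. It was called lower in all 4 lines, but the CHLA15 call (-0.16) was lost without any 1 of that line's libraries (-0.19 to -0.13). SMC2 was at 129.7 and 127 CPM in CHLA15 controls and 119 and 125 with palbociclib, and 138 and 128 against 116 and 109 in CHLA20. SMC2 stood at 99.9 and 98.7 CPM in NB1643 controls and 52.2 and 54 with palbociclib, and 53.6 and 54.7 against 29.7 and 29.3 in NB1691. It had the smallest change of the 5 condensin genes in each line. SMC4 was at 327 and 323 CPM in CHLA15 controls and 262 and 263 with palbociclib, and 360.3 and 339.8 against 244 and 237 in CHLA20. SMC4 stood at 299 and 321 CPM in NB1643 controls and 87.4 and 95.01 with palbociclib, and 238 and 243 against 84.3 and 81.4 in NB1691. In NB1691 the condensin I subunits NCAPG, NCAPH and NCAPD2 changed by -3.01, -2.96 and -1.31, and SMC2 and SMC4, shared with condensin II, by -0.88 and -1.54. NCAPG shares 33.7% of its exon bases with LCORL.

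SGO1 and TPX2 fell in all 4 lines, ANLN also did, and PRC1 and ECT2 fell in CHLA20, NB1643 and NB1691. ANLN, a scaffold of the cytokinetic ring, had the largest of these falls (-3.13 in NB1691).

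FOXM1 was at 382 and 380.2 CPM in CHLA15 controls and 307 and 303 with palbociclib, and 346 and 350.3 against 265 and 261 in CHLA20. FOXM1 stood at 205 and 188 CPM in NB1643 controls and 15.5 and 16.05 with palbociclib, and 83.5 and 86.2 against 8.64 and 7.71 in NB1691. It fell in all 4 lines. MYBL2 was at 257 and 266 CPM in CHLA15 controls and 234 and 227 with palbociclib, and 271 and 304 against 195 and 201 in CHLA20. MYBL2 stood at 175 and 158 CPM in NB1643 controls and 10.3 and 9.9 with palbociclib, and 103 and 106 against 9.3 and 8.23 in NB1691. MYBL2 was called lower in all 4 lines too, but the CHLA15 call (-0.18) was lost without any 1 of that line's libraries (-0.21 to -0.15) and in DESeq2. LIN54 was at 25.8 and 25.6 CPM in CHLA15 controls and 28.3 and 30.2 with palbociclib, and 26.1 and 25.7 against 25.7 and 26.6 in CHLA20. LIN54 stood at 29.4 and 34.1 CPM in NB1643 controls and 26.5 and 28.5 with palbociclib, and 20.6 and 21.3 against 17.5 and 16.3 in NB1691. It had the highest value of the 52 in CHLA15 (0.19, edgeR adjusted p = 0.0562) and CHLA20 (0.01, edgeR adjusted p = 0.957), neither called. In the NB lines LIN54 and LIN9 were lower by small amounts (-0.20 and -0.42 in NB1643). The calls of LIN54 were lost in NB1643 without control replicate 2 (-0.12) or palbociclib replicate 1 (-0.15) and in NB1691 without palbociclib replicate 2 (-0.26). TOP2A was at 1307 and 1341 CPM in CHLA15 controls and 887 and 959.6 with palbociclib, and 1446 and 1319 against 902 and 881 in CHLA20. TOP2A stood at 507 and 507 CPM in NB1643 controls and 21.5 and 21.1 with palbociclib, and 491 and 503 against 46.7 and 40.02 in NB1691. It fell in all 4 lines. MKI67 was at 490.0 and 483 CPM in CHLA15 controls and 345 and 409 with palbociclib, and 537 and 395 against 319 and 306 in CHLA20. MKI67 stood at 285 and 225 CPM in NB1643 controls and 6.83 and 6.68 with palbociclib, and 131 and 136 against 7.2 and 5 in NB1691. It had the lowest value of the 52 in NB1691 (-4.43, edgeR adjusted p = 1.3e-13) and the lowest after AURKB in NB1643 (-5.24, edgeR adjusted p = 7.5e-15). The CHLA15 call of MKI67 (-0.37) was lost without either control (-0.36 and -0.38) or palbociclib replicate 1 (-0.25) and in DESeq2.

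**Figure D4:**
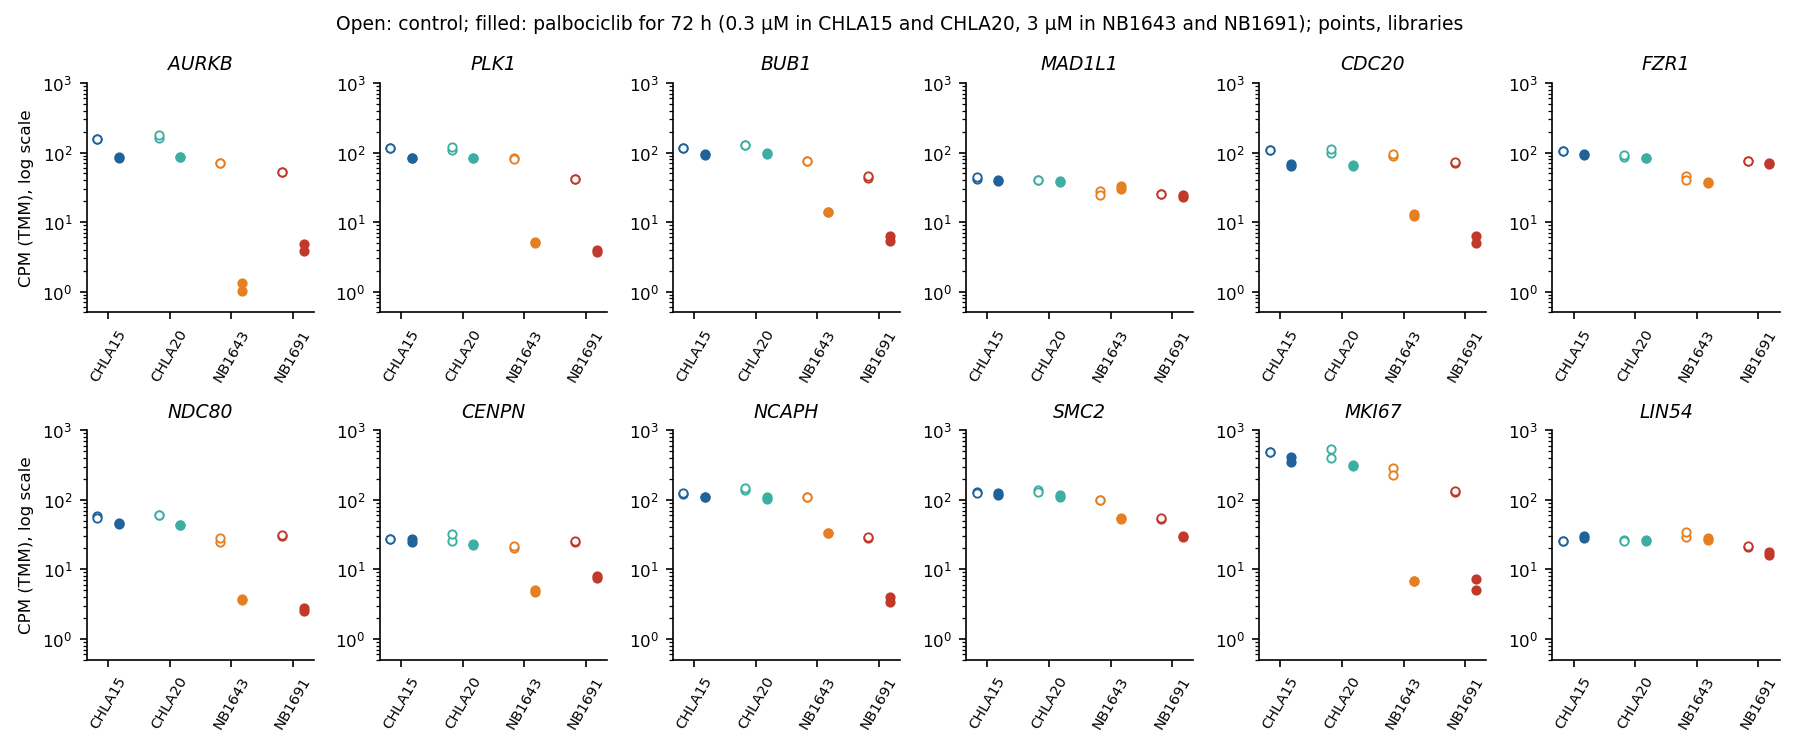
Points give the CPM (y axis, log scale) of 12 genes in each control (open) and palbociclib (filled) library of the 4 lines (x axis). AURKB fell from 70.6 and 70.1 to 1.33 and 1.02 CPM in NB1643, while FZR1 stood at 75.5 CPM in both NB1691 controls and at 71.7 and 67.8 CPM with palbociclib.

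The change with palbociclib differed among the 4 lines for 50 of 52 members, all but BUB3 and FZR1, and for 38% of all genes tested (edgeR interaction, adjusted p under 0.05). Between CHLA20 and CHLA15, at the same dose, 1 member differed, where 2.02% of all genes did. That was MYBL2, which fell further in CHLA20 (-0.36, standard error 0.0893, edgeR adjusted p = 0.0435). The lowest value was that of SPC25 (-0.40, edgeR adjusted p = 0.051), and the highest were SPC24 (0.05, 95% interval -0.14 to 0.24) and FZR1 (0.05, 95% interval -0.14 to 0.23). Without any 1 of the 8 libraries the call of MYBL2 was lost (-0.40 to -0.29), except without CHLA20 control replicate 1. Leaving that library out gave 9 calls among the 52, and leaving out any 1 of the other 7 gave 0. The other 51 members were not called, which does not show that the lines responded alike.

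Between NB1691 and NB1643, also at the same dose, 33 members differed, 18 with the lower fold change in NB1691 and 15 in NB1643, where 22% of all genes differed in either direction. NCAPH (-1.22, edgeR adjusted p = 5.2e-08) and CENPM, an inner kinetochore subunit (-1.20, edgeR adjusted p = 3.9e-05), fell further in NB1691. CENPE, the kinetochore kinesin (1.06, edgeR adjusted p = 9.7e-06), and AURKB (2.29, edgeR adjusted p = 7.9e-09) fell further in NB1643. CENPM was at 34 and 32.4 CPM in NB1643 controls and 14.02 and 11.9 with palbociclib, and 18.9 and 19.1 against 3.81 and 2.61 in NB1691. CENPE was at 67.1 and 64.4 CPM in NB1643 controls and 5.71 and 6.7 with palbociclib, and 45.7 and 47.7 against 9.4 and 8.84 in NB1691. The ratio of treated to control levels was lower in NB1691 for CENPM and in NB1643 for CENPE. CDC20 fell further in NB1691 (-0.80), while PTTG1 (0.95) and PLK1 (0.57) fell further in NB1643. Of the condensin genes NCAPH and NCAPG fell further in NB1691, and NCAPD2 and SMC4 in NB1643. The call of NCAPG was lost without NB1691 palbociclib replicate 2 (-0.29), and that of SMC4 without any 1 of 5 of the 8 libraries (0.17 to 0.25).

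In the siRNA experiment the libraries labelled siKDM6B did not have lower KDM6B RNA. KDM6B was at 6.47 and 8.76 CPM in the siCtrl libraries and at 8.99, 7.11 and 8.26 CPM with N1, N2 and N33, or 0.09 on the log2 scale (edgeR adjusted p = 0.945). The paper reports knockdown of KDM6B by siRNA in BE2C cells with western blots, a measure of protein that these counts do not give. The library with N33 stood apart from those with N1 and N2, with MYCN at 466 CPM against 1742 and 1736. MYCN was at 1596 and 1613 CPM in the siCtrl libraries, so only N33 was below them. The edgeR test called 0 of the 52 members and 0% of the 17472 genes tested. At an unadjusted p under 0.05 it gave 21 members and 9.24% of all genes (1615), while DESeq2 called 5 members and limma-voom 0. The common coefficient of variation was 0.3503, against 0.0219 with GSK-J4 and 0.0523 with palbociclib. The siKDM6B group joins different siRNAs with a single library each, so its spread includes any difference between siRNAs. The other values come from libraries of the same condition.

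The values nevertheless lay on the lower side. All 3 siKDM6B libraries were below both siCtrl libraries for 42 of 52 members (80.8%) and for 16.8% of all genes tested, and without N33, where fewer libraries have to separate, for 43 members and 26% of all genes. The exceptions were BUB3, MAD2L1, MAD1L1, TTK, CENPU, CENPW, NCAPH, SMC2, LIN9 and LIN54. The median log2 ratio to siCtrl over the 52 genes was -0.47, -0.43 and -1.42 for N1, N2 and N33, and -0.03 between the siCtrl libraries. The summed level was 8365 and 8224 CPM with siCtrl and 5856, 6242 and 3291 CPM with N1, N2 and N33. The summed sympathoadrenal markers spanned 1983 to 4170 CPM over the siKDM6B libraries and 3739 to 3780 CPM over siCtrl, and their part in these values was not tested.

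**Figure D5:**
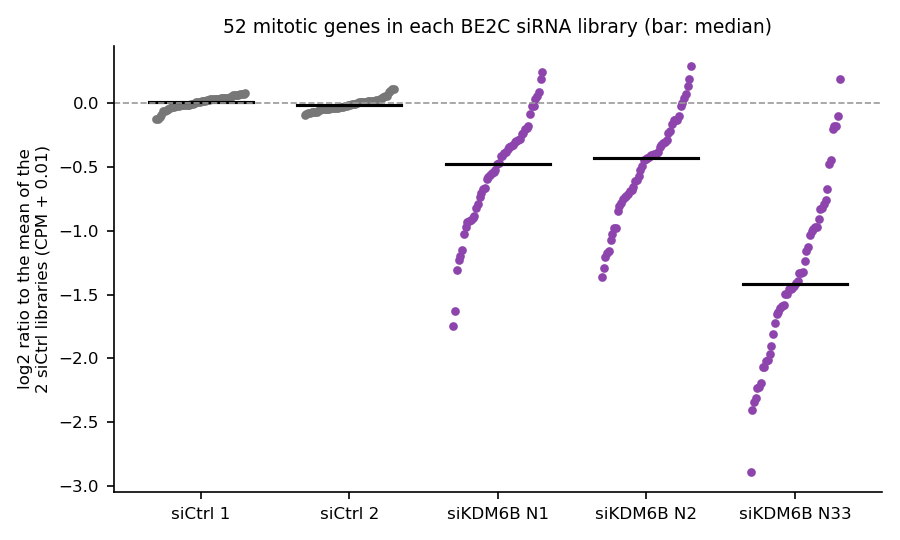
Each point is a gene, given as the log2 ratio of its CPM plus 0.01 to the mean of the 2 siCtrl libraries (y axis) in each BE2C siRNA library (x axis), and bars are medians. The medians are -0.47, -0.43 and -1.42 for N1, N2 and N33.

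Of the kinases, PLK1 was at 80.6 and 92.8 CPM with siCtrl and 73.8, 79.1 and 22.2 with N1, N2 and N33. AURKA was at 147 and 135 CPM with siCtrl and 74.5, 104.4 and 63.1 with N1, N2 and N33. PLK4 was at 69.6 and 67.97 CPM with siCtrl and 51.7, 52.8 and 50.5 with N1, N2 and N33. The N33 library was the lowest for all 3, far so for PLK1, whose N1 and N2 libraries lay just under siCtrl. BUB1 was at 82.1 and 82.5 CPM with siCtrl and 59.2, 52.3 and 35 with N1, N2 and N33. BUB3 was at 233 and 218 CPM with siCtrl and 257, 114 and 162 with N1, N2 and N33. MAD2L1 was at 239 and 216 CPM with siCtrl and 237, 204 and 115 with N1, N2 and N33. Its N1 library lay between the siCtrl libraries. MAD1L1 was at 28.1 and 28.8 CPM with siCtrl and 22.5, 26.01 and 32.4 with N1, N2 and N33, so its libraries overlapped in both directions. Of these 4 checkpoint genes BUB1 alone had no overlap.

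CDC20 was at 83.6 and 85.9 CPM with siCtrl and 41.6, 51.9 and 26.9 with N1, N2 and N33. FZR1 was at 31.2 and 32.8 CPM with siCtrl and 27.1, 24.3 and 28.2 with N1, N2 and N33, and neither gene overlapped between the groups. Per length, CDC20 was 8.64 and 8.45 times FZR1 with siCtrl and 4.95, 6.87 and 3.07 times with N1, N2 and N33. UBE2C was at 152 and 149 CPM with siCtrl and 94.8, 90.7 and 37.3 with N1, N2 and N33. PTTG1 was at 158 and 151 CPM with siCtrl and 106, 102 and 43.99 with N1, N2 and N33. Both were lowest with N33. BIRC5 was at 144 and 146 CPM with siCtrl and 84.3, 64.5 and 57.97 with N1, N2 and N33. INCENP was at 53.6 and 54.7 CPM with siCtrl and 47.3, 46.7 and 27.7 with N1, N2 and N33. These, too, were lowest with N33 and showed no overlap.

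The lowest log2 fold changes belonged to a pair of NDC80 complex subunits, SPC25 (-1.56, standard error 0.375, edgeR adjusted p = 0.52) and SPC24 (-1.48, standard error 0.247, edgeR adjusted p = 0.52). SPC25 was at 17.5 and 16.5 CPM with siCtrl and 7.26, 6.6 and 3.41 with N1, N2 and N33. SPC24 was at 76.1 and 74.8 CPM with siCtrl and 24.4, 33.8 and 22.9 with N1, N2 and N33. All siKDM6B values of this pair were below siCtrl. NDC80 was at 38.6 and 39.2 CPM with siCtrl and 23.9, 28.9 and 15.5 with N1, N2 and N33. SKA2 was at 278 and 260.3 CPM with siCtrl and 146, 117 and 123 with N1, N2 and N33. CENPF was at 779.7 and 772 CPM with siCtrl and 617, 765 and 258 with N1, N2 and N33. CENPF had only a small gap between siCtrl and N2. CENPU was at 70.9 and 67.3 CPM with siCtrl and 53.1, 72.8 and 35.3 with N1, N2 and N33. CENPN was at 75.3 and 68.5 CPM with siCtrl and 63.5, 49.99 and 40.6 with N1, N2 and N33. The N2 library of CENPU lay above both siCtrl libraries.

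NCAPH was at 58.5 and 59.96 CPM with siCtrl and 41.1, 59.5 and 33.3 with N1, N2 and N33. SMC2 was at 237 and 224 CPM with siCtrl and 245, 237 and 204 with N1, N2 and N33. SMC4 was at 562 and 555 CPM with siCtrl and 335, 397 and 279.5 with N1, N2 and N33. Of these, only SMC4 had no overlap. FOXM1 was at 132 and 142 CPM with siCtrl and 129, 81.2 and 45.7 with N1, N2 and N33. MYBL2 was at 129.8 and 152 CPM with siCtrl and 57.1, 78.5 and 30.2 with N1, N2 and N33. Both had no overlap. LIN54 was at 67.9 and 68.9 CPM with siCtrl and 67.5, 74.99 and 59.4 with N1, N2 and N33. The highest fold changes of the 52 were those of LIN9 (0.16, edgeR adjusted p = 0.854) and SMC2 (-0.01, edgeR adjusted p = 0.992). TOP2A was at 1095 and 1049 CPM with siCtrl and 725, 852 and 255 with N1, N2 and N33. MKI67 was at 164 and 194 CPM with siCtrl and 147, 136 and 33.9 with N1, N2 and N33. Both were far lower with N33 than in the other libraries.

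Across experiments, 33 of the 52 members were lower in all 4 palbociclib lines, against 3.28% of all genes tested. At 48 h of GSK-J4 32 of these were lower as well, a condition that 2.81% of the 16740 genes tested in both experiments met. Both counts rest on the small changes in CHLA15. There, an absolute log2 fold change above 0.5 left 4 members called (7.69%), against 11.7% of all genes. The CHLA15 calls of BUB3, CENPF, NCAPH, MYBL2 and MKI67, all among the 33, were lost when single libraries were left out. These genes are examples only, because CHLA15 calls of further members among the 33 were lost in this way as well. A further 14 members were lower in 3 lines, of which 12 were lower at 48 h. The share of all genes lower in 3 lines was not computed, so these 2 counts only describe the list. MAD2L1, LIN9 and LIN54 were lower in 2 lines, FZR1 in 1 and MAD1L1 in 0. Of the transcription genes, LIN54 alone was higher at 48 h of GSK-J4. Across the 52 genes, Spearman correlations of log2 fold changes between experiments that share no library were 0.42 to 0.56 for GSK-J4 at 48 h against each palbociclib line, and 0.015 to 0.19 over all genes. Against siKDM6B, GSK-J4 at 48 h gave 0.37 over the members and 0.30 over all genes, and the palbociclib lines gave 0.54 to 0.67 over the members and 0.12 to 0.23 over all genes. Genes are not independent replicates, and these are descriptions.

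Medians by role, given in the order kinases, APC/C group, kinetochore, condensin, checkpoint and transcription genes, set these groups side by side. At 48 h of GSK-J4 they were -1.59, -1.43, -0.68, -0.64, -0.51 and -0.22. With siKDM6B they were -0.75, -1.02, -0.78, -0.62, -0.35 and -0.35. In CHLA15 they were -0.45, -0.47, -0.23, -0.25, -0.15 and -0.04, and in CHLA20 -0.60, -0.53, -0.39, -0.43, -0.27 and -0.24. In NB1643 they were -3.10, -3.06, -2.18, -1.77, -1.61 and -2.03, and in NB1691 -3.44, -3.46, -2.37, -1.54, -1.88 and -1.86. Kinases and the APC/C group had the lowest medians of the 6 in all of these except siKDM6B, where the kinetochore lay below the kinases. Not all roles are among the 6. The pair MKI67 and TOP2A had a lower median than both in CHLA20 (-0.605 against -0.598 for kinases), NB1643 (-4.91) and NB1691 (-3.98). The median of this pair was above both at 48 h of GSK-J4 (-0.88) and in CHLA15 (-0.44), and between them with siKDM6B (-0.79). Groups this small carry no test.

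Members with a CHR had a median of -0.82 at 48 h of GSK-J4 (30 genes) and members without it -0.39 (13 genes). Over all genes tested with a promoter, these medians were -0.07 with a CHR and -0.02 without it. For the members, with and without a CHR, the medians were -0.44 and -0.20 at 24 h and -0.28 and -0.18 in CHLA15. They were -2.16 and -2.01 in NB1643 and -2.72 and -2.37 in NB1691. The order was the other way with siKDM6B (-0.60 and -0.88), in CHLA20 (-0.38 and -0.42) and between 24 and 48 h of GSK-J4 (-0.46 and -0.51). BUB1, PLK1 and CDC20, with a CHR at 2, -29 and -65, were among the members that fell, and FZR1 also held the letters. So did SKA1 (at 35) and LIN54 (at -100), the highest members at 24 h and at 48 h of GSK-J4. AURKB, CENPE, PTTG1 and SPC24 held no CHR in the window and fell as well.

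Other genes of the same pathways, which are no members, were counted as a list of 76 tested in BE2C and 78 in the palbociclib lines. At 24 h of GSK-J4 45 were lower and 12 higher, at 48 h 59 were lower and 10 higher, and between these times 56 were lower and 4 higher. Of all genes tested, 28% were lower and 27.3% higher at 24 h, 34.4% and 37.1% at 48 h, and 28% and 25.9% between these times. The lowest of the list were CENPA, the centromeric histone (-2.51 at 48 h), and HMMR, a spindle protein (-2.01). The highest of the list were MYBL1, a relative of MYBL2 (1.58), and LIN37, a MuvB subunit (0.81). The same ends at 24 h were CENPA (-1.37), HMMR (-0.91), MYBL1 (0.59) and the APC/C subunit ANAPC16 (0.58). Between 24 and 48 h PDS5B, a cohesin regulator (0.60), came after MYBL1 (0.99). With palbociclib, 37 were lower and 3 higher in CHLA15, 48 and 1 in CHLA20, 65 and 1 in NB1643, and 59 and 2 in NB1691. The shares of all genes tested, lower and higher, were 15.6% and 14.2% in CHLA15 and 15.9% and 13.7% in CHLA20. They were 19.7% and 20.3% in NB1643 and 15.5% and 17.4% in NB1691.

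The lowest of these other genes were BORA, an activator of AURKA (-0.80), and HJURP, the loader of CENPA (-0.54), in CHLA15. They were HMMR (-0.75) and BORA (-0.73) in CHLA20, CENPA (-5.08) and HMMR (-4.75) in NB1643, and HMMR (-4.04) and CEP55 (-3.96) in NB1691. ANAPC13, an APC/C subunit, was higher in all 4 lines (0.27, 0.23, 0.33 and 0.29), with ZWILCH (0.35) higher in CHLA15 and CDC16 (0.14) in NB1691. RACGAP1 in CHLA20 (-0.14) and RBL2 in NB1643 (-0.18) came next among those called. Of the other genes, 0 were called with siKDM6B by edgeR, as were 0% of all genes tested. Between the CHLA lines MELK had the lower fold change in CHLA20 (-0.37). Between the NB lines CIT (-1.18) and PBK (-0.69) had the lower fold change in NB1691, while MYBL1 (1.70) and CENPA (1.80) had the higher.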

How the data were processed

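RNA of 5 cell lines was sequenced, and the deposited files give read counts per gene that the authors made with STAR 2.5.3a and HTSeq on hg19 (GRCh37), as the submitters' processing notes list them. Human gene symbols stand in the files, although the annotation release given in the study's methods is a mouse one. Entries that name no gene were left out. Reads matching no gene were 5.10% to 16.8% of all reads, ambiguous reads 2.14% to 3.46%, reads with several matches 4.00% to 6.74% and unaligned reads 3.32% to 5.75%.

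The 22 BE2C files were summed in pairs to 11 libraries. Files of 1 library differed by a chi-square per degree of freedom of 1.48 to 1.65, and files of different libraries by 1.89 to 4.33. The palbociclib experiment had 16 libraries. Groups came from the labels.

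GSK-J4, siRNA and palbociclib libraries were each fitted over all genes with edgeR 4.0.16 (quasi-likelihood F test, TMM scaling, filterByExpr, Benjamini-Hochberg adjusted p under 0.05) in R 4.3.3. A line-by-treatment term tested differences between lines. The study used limma-voom, and DESeq2 1.42.0 and limma 3.58.1 were run as alternatives, with other scalings, filters, samples and a replicate block. CPM were computed with TMM scaling, RPKM with GENCODE exon lengths. The code was tested on simulated data.

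The members and lists were chosen with earlier results of these data known. Per-library values are given for members fixed by role. Added in each comparison were the 2 lowest and 2 highest members and any called against the majority, and the same ends of the other pathway genes called. Other members with values in the text were chosen after their values were seen.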

Additional observations from a re-analysis of the deposited data

Results flagged for a closer look

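The change with palbociclib differed between lines in the tests below, which is why these values are given again. Over the 4 lines 50 members differed (38% of all genes), with line and dose confounded between the CHLA and NB lines. Between the CHLA lines MYBL2 alone was called, with the lower change in CHLA20 (-0.36 on the log2 scale), where 2.02% of all genes differed. This call was lost with any library of these lines left out except CHLA20 control replicate 1, so it is not a stable difference. Between the NB lines 33 members differed (22% of all genes). NCAPH (-1.22) and CENPM (-1.20) had the lower change in NB1691, and CENPE (1.06) and AURKB (2.29) in NB1643. The NB1691 libraries also stood apart in their summed fibroblast, epithelial and sympathoadrenal markers, and the part of this in the differences was not tested. Groups of 2 or 3 libraries were too small for a test of a single library far from its group, and the N33 library of siKDM6B, with a member median of -1.42 against -0.47 and -0.43, was not tested in that way.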

How the results depend on the processing

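Over the alternatives, 362 called changes of single members had 4626 values, of which 0 had the opposite sign. Requiring an absolute log2 fold change above 0.5 left 20 members called at 24 h of GSK-J4, 26 between 24 and 48 h, 4 in CHLA15, 18 in CHLA20 and 0 between the CHLA lines. Of all genes tested it left 21.7%, 17.5%, 11.7%, 12% and 1.09%, so in CHLA15 the members' share (7.69%) was below that of all genes. Between the CHLA lines (1 member) other settings gave 4 (at least 1 count), 2 (at least 10 counts), 7 (DESeq2), 2 (limma-voom), 0 (library totals) and 0 (only these groups), and 0 to 9 with a library left out. For siKDM6B (0 members) they gave 3 (at least 1 count), 5 (DESeq2), 24 (each file as a sample) and 11 (in 1 fit with GSK-J4). The 2 files of 1 library are not separate samples, so the count of 24 is no evidence from separate libraries. The fit with GSK-J4 shares its estimate of spread with libraries whose common coefficient of variation was 0.0219, against 0.3503 with siRNA. These siKDM6B counts stand without the share of all genes and are not read as a result. Without any 1 siRNA library edgeR called 0. In 100 bases around the start CCAAT was in 30.2% of members and E2F in 0, which was also its value in 200 bases. The causes of these moves were not tested.

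With a library left out, calls of the other comparisons stayed within 1.5 times of those reported: 44 to 47 at 24 h, 49 to 50 at 48 h, 48 to 49 between these, 24 to 28 in CHLA15, 43 to 46 in CHLA20, 50 to 51 in NB1643, 48 to 50 in NB1691, 49 to 50 among the 4 lines and 26 to 34 between the NB lines. Upper-quartile scaling moved the median of all genes at 48 h from 0.05 to 0.16.

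Signs turned only in changes near 0 that had not been called, and ranges here are over libraries left out. CENPN at 24 h became 0.011 (library totals), 0.035 (upper quartiles), 0.0095 (at least 10 counts) and 0.0055 (each file as a sample), with a range of -0.080 to 0.064, and its range in CHLA15 was -0.13 to 0.0087. CENPU at 48 h became 0.041, 0.11, 0.047 and 0.026 in that order, with a range of -0.048 to 0.031. MAD1L1 ranged from -0.023 to 0.057 at 24 h and from -0.23 to 0.045 with siKDM6B. LIN9 between 24 and 48 h became 0.027 (upper quartiles). With siKDM6B, SMC2 became 0.031 (library totals) and 0.0080 (upper quartiles), with a range of -0.059 to 0.068, and LIN54 0.019 (library totals), with a range of -0.10 to 0.061. LIN54 in CHLA20 ranged from -0.025 to 0.018. Between the CHLA lines FZR1 ranged from -0.014 to 0.078 and SPC24 from -0.017 to 0.091.

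A block for the replicate number gave 48, 49 and 50 calls at 24 h, at 48 h and between these, 34 in CHLA15, 47 in CHLA20, 52 in NB1643, 50 in NB1691, 50 among the 4 lines, 2 between the CHLA lines and 32 between the NB lines. Samples share only a number: deviations of same-numbered libraries correlated at -0.039 to 0.103. The siRNA groups share no numbers, and the test among untreated lines could not be fitted with a block. Depth left no member at or under the floor.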
